A study of Mus musculus with 3 samples.

Results

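The 8 long noncoding RNAs Malat1, Neat1, Gas5, Snhg1, Snhg5, Snhg6, Snhg8 and Snhg12, were followed in mouse heart tubes that lack Sox7. They were chosen by gene symbol, and 8 of the 23337 genes in the count files carried these symbols. Heart tubes at embryonic day 9.5 were compared between the Sox7-null genotype (SOX7 -/-, 2 libraries) and the wild type (1 library), with 500 ng of total RNA going into each library. Sox7 encodes a SoxF transcription factor of endothelium and endocardium. No other allele, treatment or strain is named in the labels, and whether each tube was 1 embryo or a pool is left unstated. All p-values thus rest only on the spread between the 2 null libraries, largely as shared over all genes, and that spread may be technical.

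Malat1 and Neat1 are transcripts of neighbouring genes that stay in the nucleus. Malat1 collects in nuclear speckles, the bodies where splicing factors are stored, and Neat1 is the scaffold of paraspeckles, which form around its long isoform. The other members are host genes: their introns release small nucleolar RNAs (snoRNAs), which guide the chemical modification of ribosomal RNA, while the spliced host transcript is exported, begins with a pyrimidine-rich start like that of ribosomal protein messages, and is in several cases destroyed by nonsense-mediated decay once ribosomes read it. Gas5 was first named for its build-up in growth-arrested cells.

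RefSeq promoter sequences on build GRCm38.p6 were found for 6 of the 8 members. They are shown from 50 bases before to 50 bases after the annotated start, because the letters at the start are a known feature of many host genes. Capitals mark the longest run of C or T that touches the stretch from 10 bases before to 20 bases after the start. The windows lie at chr9:88522848-88522947 on the minus strand (Snhg5), chr4:132308628-132308727 on the plus strand (Snhg12), chr19:8723437-8723536 on the plus strand (Snhg1), chr1:161035116-161035215 on the plus strand (Gas5, the second of the table's 2 starts), chr3:123508287-123508386 on the minus strand (Snhg8) and chr19:5802623-5802722 on the minus strand (Malat1).
Snhg5: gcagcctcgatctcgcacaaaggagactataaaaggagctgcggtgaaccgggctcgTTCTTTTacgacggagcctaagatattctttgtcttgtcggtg
Snhg12: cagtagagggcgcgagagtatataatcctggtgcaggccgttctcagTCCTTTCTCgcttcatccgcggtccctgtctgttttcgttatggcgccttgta
Snhg1: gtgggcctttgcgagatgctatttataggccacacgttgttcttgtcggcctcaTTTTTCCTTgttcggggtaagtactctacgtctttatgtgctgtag
Gas5: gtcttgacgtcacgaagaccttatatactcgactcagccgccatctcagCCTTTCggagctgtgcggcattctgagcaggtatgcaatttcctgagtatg
Snhg8: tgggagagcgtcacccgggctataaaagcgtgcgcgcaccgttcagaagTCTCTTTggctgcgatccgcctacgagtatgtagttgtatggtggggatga
Malat1: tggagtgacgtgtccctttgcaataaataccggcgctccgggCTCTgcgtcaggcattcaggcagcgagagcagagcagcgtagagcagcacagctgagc

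The pyrimidine run was 9 bases long in Snhg1 and Snhg12, 7 in Snhg5 and Snhg8, 6 at the Gas5 start shown and 4 in Malat1. The other Gas5 start in the table had a run of 3, which 90.8% of all promoters reach, and neither motif named below. Among all 32851 promoters of the table, 11.6% had a run of at least 9 bases, 24.6% of at least 7, 36.3% of at least 6 and 74.6% of at least 4. Snhg5, Snhg8 and Snhg12 carried the letters TATAA on the transcript strand within the 50 bases before the start, as did 4.93% of all promoters. TGACG, the core letters of sites for the CREB and ATF family, was searched on both strands of the whole window of 300 bases and was present in Malat1, Gas5 (the start shown), Snhg8 and Snhg12 and in 20.8% of all promoters. ACGTG, the core of sites for hypoxia-inducible factors, was present in Malat1, Snhg1 and Snhg5 and in 19.6% of all promoters, and it overlaps TGACG where the letters TGACGTG occur. Snhg5, which rose, and Snhg8, which fell, shared a run of 7 pyrimidines and the TATAA letters. Only some other snoRNA hosts were looked up. Their run was 4 bases in Zfas1, as in Malat1, 5 in Snhg3, 6 in Snhg7 and 8 in Snhg16. The median run of all promoters was 5. Malat1 is the only member shown that is no host, so run length could not be compared between hosts and other members.

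Reads assigned to genes numbered 13139823, 13618338 and 13789388, the wild type last. Sox7 had 2 and 7 null reads against 222. Reads that aligned to more than 1 place were 10.4% and 11.6% of null reads and 22.3% of wild-type reads, and the ribosomal RNA gene Rn45s had 85987, 126116 and 287470 reads. These differences run with the genotype, and their part in the values below was not tested. All 10 listed cardiac markers were detected, while 5 of 9 retinal markers had no read in any library and the 9 together had 19, 6 and 17 reads. The retinal list was examined because the extraction protocol in the labels names retinal organoids.

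Malat1, Neat1 and Snhg5 rose in heart tubes without Sox7, Snhg8 fell, and Gas5, Snhg1, Snhg6 and Snhg12 did not pass the test. All 8 members passed the filter on low counts and were tested, Neat1 only through the null libraries. At an adjusted p under 0.05 (edgeR's quasi-likelihood test, adjusted over 13334 genes), 3 of 8 were higher, where 11.3% of all tested genes were, and 1 of 8 was lower, where 10.2% were. Both null libraries lay above the wild type for 6 members and below it for 2, against 43.1% and 43.0% of all tested genes. The median log2 fold change of the members was 0.66, and that of all tested genes was 0.01.

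**Figure D1:**
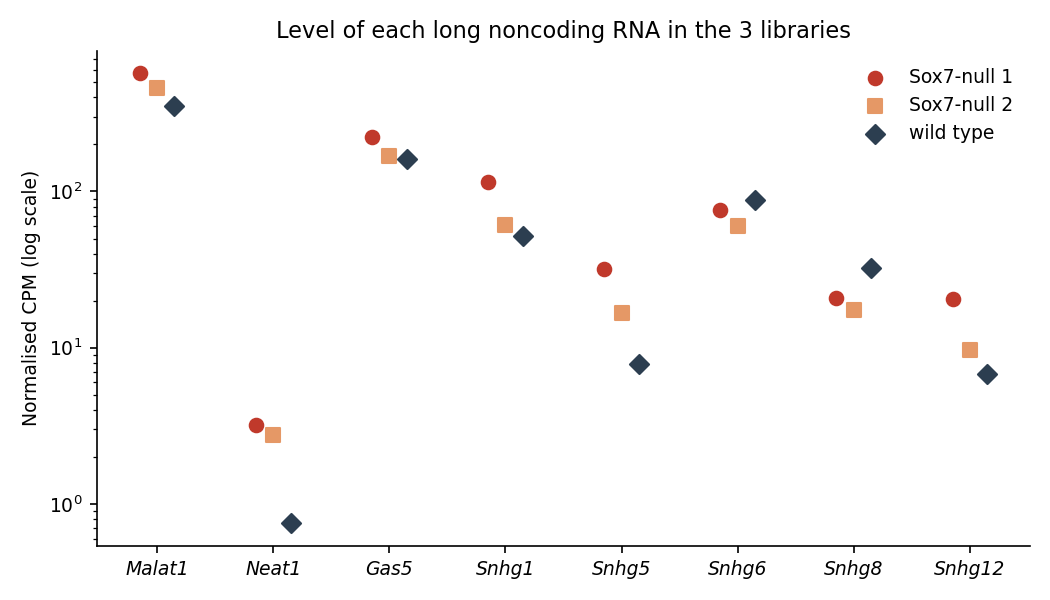
Normalised CPM (read counts scaled to library size with TMM factors, log axis) of the 8 long noncoding RNAs, with 1 point for each library: circles for Sox7-null 1, squares for Sox7-null 2 and diamonds for the wild type. Both null libraries lie above the wild type for 6 RNAs and below it for Snhg6 and Snhg8, and Sox7-null 1 is above Sox7-null 2 for all 8.

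Malat1, the speckle RNA, was the most abundant of the set by reads. Its level was 571 CPM for Sox7-null 1, 458 for Sox7-null 2 and 351 for wild type, from 7696, 6314 and 4649 reads. Both null libraries were above the wild type, and Sox7-null 2 lay between Sox7-null 1 and the wild type. The rise was 1.47-fold, or 0.55 ± 0.18 (SE) on the log2 scale (by edgeR, adjusted p = 0.0426). Malat1 took 0.0586% and 0.0464% of gene reads in the mutants and 0.0337% in the control. The call is close to the threshold: in 4 of 8 other settings it was lost, among them DESeq2 (adjusted p = 0.0724), and the adjusted p ranged from 0.00570 to 0.184.

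Neat1, the paraspeckle scaffold, was scarce, with 43 and 38 reads in the mutants and 10 in the control. These are 3.19, 2.76 and 0.754 CPM, so the null libraries lay close together and well above the wild type. Neat1 rose 3.91-fold, or 1.97 ± 0.60 (SE) on the log2 scale (by edgeR, adjusted p = 0.0337), and the ratio of summed counts, 3.94, had a 95% exact interval of 2.04 to 8.53 that covers counting error only. The count file has a single Neat1 row, so the short isoform and the long, paraspeckle-forming isoform, which overlap, cannot be told apart. DESeq2 did not call Neat1 (adjusted p = 0.197), nor did limma-voom (adjusted p = 0.0689), and over 7 other settings the adjusted p ranged from 0.0173 to 0.197. It had too few reads for the setting that requires 5 CPM. In the main setting Neat1 passed the filter on low counts only through the null libraries, where it is high. Its test is therefore not independent of that rise.

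Because read counts grow with transcript length, the members were also set side by side per kilobase. In the wild type, Malat1 stood at 50.2 CPM per kilobase on its transcript of 6983 bases. Neat1 stood at 0.0363 CPM per kilobase on its transcript of 20771 bases and at 1.06 on the shortest annotated one, of 711 bases. It was thus the lowest member whichever annotated transcript was taken, since the next lowest, Snhg12, stood at 4.41 on its longest transcript. Gas5 spanned 63.2 to 467 CPM per kilobase and Snhg8 41.7 to 72.2 between the RefSeq-linked and the shortest annotated transcript, so the order of the abundant members depends on which transcripts the reads came from.

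Snhg5, which hosts the snoRNAs Snord50a and Snord50b, showed the largest rise among the host genes studied. It had 433 and 230 reads in the null libraries against 104 in the wild type, or 32.1, 16.7 and 7.84 CPM. Sox7-null 1 was 4.10-fold and Sox7-null 2 was 2.13-fold above the wild type. The fitted rise was 3.11-fold, or 1.64 ± 0.36 (SE) on the log2 scale (by edgeR, adjusted p = 0.00767). It was called in 7 of 8 other settings, and without Sox7-null 1 the log2 fold change was 1.09, with no test possible.

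Snhg12 and Snhg1 lay above the wild type in both null libraries but did not pass the test. Snhg12 had 20.5 and 9.72 CPM in the mutants and 6.79 in the wild type, or 1.16 ± 0.40 (SE) on the log2 scale (by edgeR, adjusted p = 0.0557). Snhg1, host of a cluster of snoRNAs and transcribed head to head with Slc3a2, had 114 and 61.2 CPM against 52.0, or 0.76 ± 0.30 (SE) on the log2 scale (by edgeR, adjusted p = 0.0904). In both, Sox7-null 1 stood apart and Sox7-null 2 lay nearer to the wild type than to the other null library. With a trend on transcript length and GC content removed, both passed (Snhg12 1.28, edgeR adjusted p = 0.0412; Snhg1 1.10, edgeR adjusted p = 0.0259), and over all 8 other settings the adjusted p ranged from 0.0229 to 0.276 for Snhg12 and from 0.0259 to 0.592 for Snhg1.

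Gas5 had 224 and 170 CPM in the mutants and 161 in the wild type. Sox7-null 2 was nearly level with the wild type, at 1.05-fold, and Sox7-null 1 was at 1.39-fold. On the log2 scale this was 0.29 ± 0.20 (by edgeR, adjusted p = 0.338), so no difference was detectable beyond the spread of the null libraries. Zbtb37 overlaps Gas5 on the opposite strand, and reads of the pair cannot be told apart, but its row held at most 39 reads in a library.

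Snhg8 moved the other way. It had 279 and 242 reads in the null libraries against 429 in the wild type, or 20.7, 17.6 and 32.4 CPM, and both null libraries lay below the wild type and close to each other. Snhg8 fell, at -0.76 ± 0.22 on the log2 scale (by edgeR, adjusted p = 0.0276), which is a 1.69-fold lower level. The call was lost in 4 of 8 other settings: with DESeq2 (adjusted p = 0.146), without the filter, once the trend on length and GC was taken out (-0.52, edgeR adjusted p = 0.118) and when scaled to all reads in a file (-0.38, edgeR adjusted p = 0.227). The adjusted p ranged from 0.0236 to 0.227 over these settings. Snhg6 was also lower in both null libraries, at 76.2 and 60.3 CPM against 88.1, but did not pass (-0.37 ± 0.21 on the log2 scale, edgeR adjusted p = 0.222). It overlaps 6030422M02Rik on the opposite strand, whose row held 10, 17 and 20 reads.

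**Figure D2:**
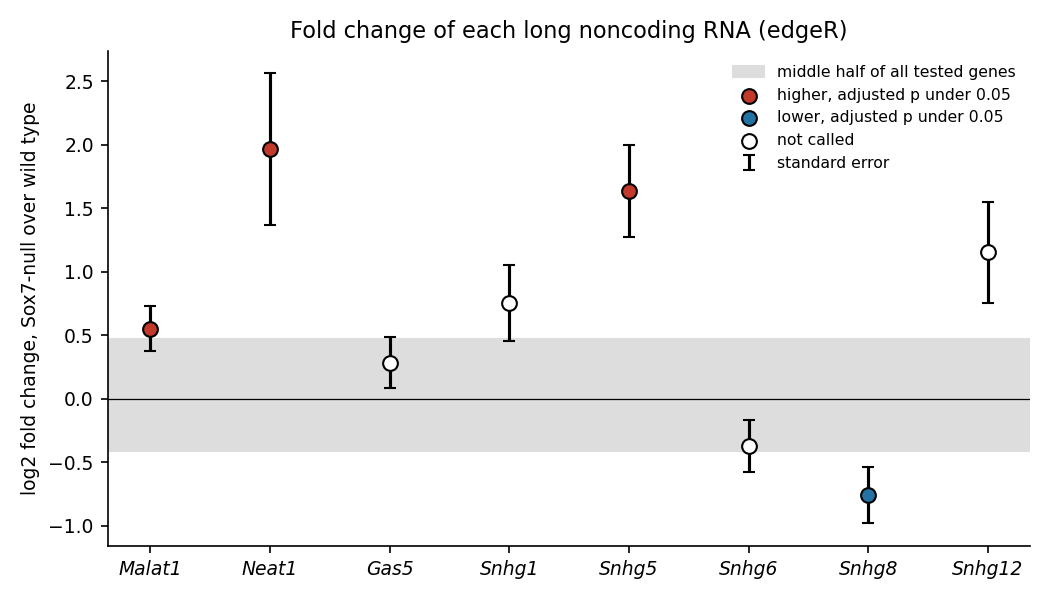
The log2 fold change of each long noncoding RNA, Sox7-null over wild type, as fitted by edgeR; bars are standard errors, filled points passed an adjusted p under 0.05, and the grey band holds the tested genes between the lower and the upper quartile (-0.41 to 0.47). Neat1 at 1.97 and Snhg5 at 1.64 lie highest, and Snhg8 at -0.76 lies lowest.

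The 2 null libraries differed from each other more for some hosts than for most genes. Sox7-null 1 was above Sox7-null 2 for all 8 members, by 1.16-fold (Neat1) to 2.11-fold (Snhg12), where 50.4% of all tested genes had that order. The log2 gaps of Snhg1, Snhg5 and Snhg12 were 0.90, 0.94 and 1.08. Ranked in log2(CPM + 0.5), their size exceeded that of 98.5%, 98.6% and 99.0% of genes with a mean of at least 5 CPM. There were 10290 such genes, and their median gap on that scale was 0.17. The gaps of Malat1, Gas5 and Snhg6 were at 75.5%, 84.8% and 77.9%, and that of Snhg8 was at 61.2%. These 3 hosts had the highest fold changes among the host members and also the widest gaps between the null libraries.

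**Figure D3:**
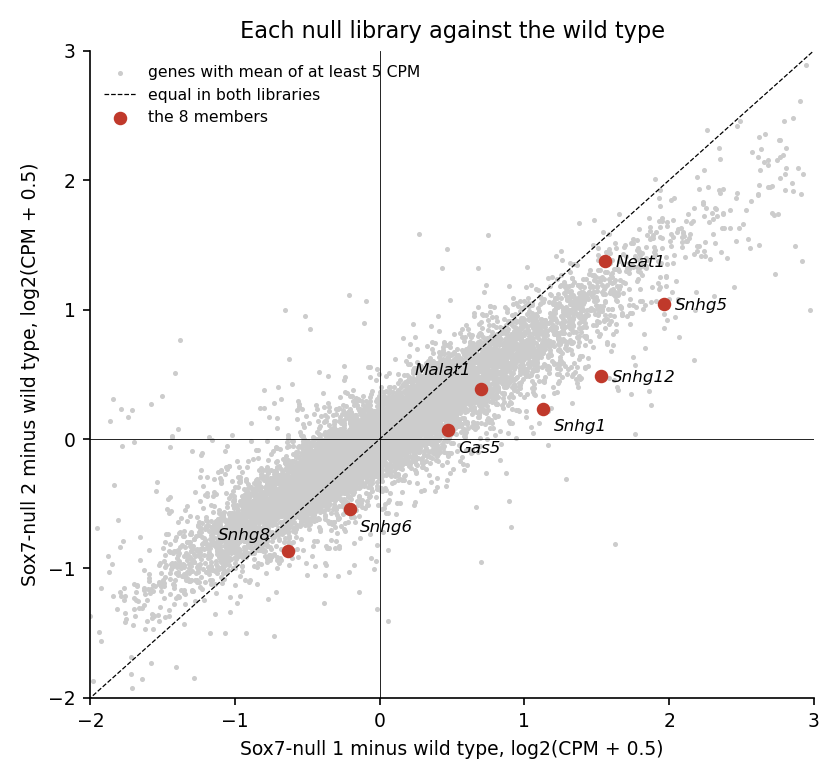
Difference of each Sox7-null library from the wild type in log2(CPM + 0.5), Sox7-null 1 on the x axis and Sox7-null 2 on the y axis; grey points are genes with a mean of at least 5 CPM, red points the 8 long noncoding RNAs, and genes beyond the axes are not drawn. All 8 lie below the dashed line of equality, with Snhg12, Snhg1 and Snhg5 farthest from it.

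Further long noncoding hosts of snoRNAs from a fixed list of 14 were all in the files, 8 of them under older symbols, and 12 were tested. Of these 0 rose and 3 fell, where 11.3% and 10.2% of all tested genes did. The median log2 fold change was -0.71, and 2 rose and 2 fell when scaled to all reads. Snhg3, Snhg7 and Snhg4 fell, and their fitted values were -1.56 ± 0.24, -1.66 ± 0.30 and -1.32 ± 0.36 (edgeR adjusted p = 0.00114, 0.00273 and 0.0214; the Snhg4 call was lost with DESeq2, without the filter and when scaled to all reads). Snhg3 had 122 and 134 reads in the null libraries against 368, Snhg7 had 60 and 75 against 207, and Snhg4 had 41 and 62 against 125. In each of them both null libraries lay below the wild type, and Sox7-null 1 was the lower one, unlike in the members.

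Zfas1, a host whose snoRNAs belong to the Snord12 group, had 48.0 and 27.5 CPM in the mutants and 20.7 in the wild type (0.87 ± 0.30 on the log2 scale, edgeR adjusted p = 0.0557). Snhg16 had 64 and 33 reads against 22 (1.10 ± 0.55, edgeR adjusted p = 0.177). Both had the order seen in all 6 members that lay above the wild type, with Sox7-null 1 highest and the wild type lowest. Snhg14, measured by a row that covers a part of its locus, had 54.1, 45.9 and 35.4 CPM (0.50 ± 0.21, edgeR adjusted p = 0.118), and Dancr had 30 and 39 reads against 75 (-1.16 ± 0.41, edgeR adjusted p = 0.0639). Snhg10, Snhg15, Snhg17, Snhg18 and Snhg20 had values of -1.81, -0.21, -0.39, -0.26 and -1.03 and did not pass, and Snhg9 and Snhg11, with at most 10 reads in a library, were not tested. Over members and these genes together, 18 hosts were tested, of which 1 rose and 4 fell, with a median of -0.31. Of all tested genes 11.3% rose and 10.2% fell. Scaled to all reads, 6 rose and 2 fell (median 0.06), where 3406 and 432 of all 13334 tested genes did. That scaling moved the median of all tested genes from 0.01 to 0.39, so the hosts' median still lay below it. With the length and GC trend taken out 5 rose and 3 fell (median -0.18), where 1142 and 1411 of all 13334 tested genes did. The balance of directions around 0 thus depends on the scaling.

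**Figure D4:**
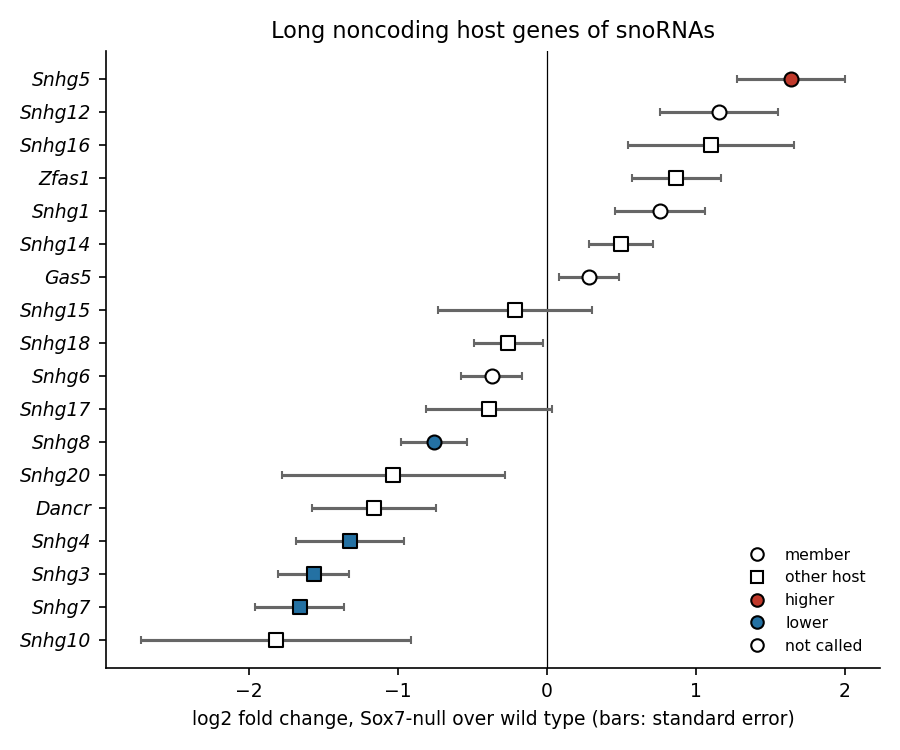
The log2 fold change (edgeR, bars are standard errors) of 18 long noncoding host genes of snoRNAs, ordered by value; circles are members, squares other hosts, red marks a higher and blue a lower level at an adjusted p under 0.05. Snhg5 is the 1 host in red, and Snhg8, Snhg4, Snhg3 and Snhg7 are in blue. Scaled to all reads, which moves the median of all tested genes to 0.39, 6 hosts are higher and 2 lower, beside 3406 and 432 of all 13334 tested genes.

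The snoRNAs themselves were almost unseen. GENCODE M21 places 24 snoRNAs, counted by distinct symbol, within the members' genes, 8 of which had a row in the files, and these rows held 0 to 11 reads per library for each host. Snhg1's snoRNA row, Snord22, had 1, 11 and 7 reads, and the 4 rows within Snhg12 together had 8, 1 and 7. Across all 110 rows named Snord or Snora, 8 were tested, 1 fell (Snord104, with 14 and 27 reads against 60, -1.59 ± 0.50 on the log2 scale, edgeR adjusted p = 0.0408) and 0 rose. Of all tested genes 10.2% fell and 11.3% rose. The snoRNA rows were too thin to set a host beside the snoRNAs cut from it. The call for Snord104 was lost with DESeq2, when scaled to all reads, without the filter and with the length and GC trend taken out (-0.69). The short structural RNAs Rmrp and Rpph1, the RNA parts of ribonucleases MRP and P, both fell, with 9 and 27 reads against 131 and 3 and 7 against 75.

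Genes for the proteins that package snoRNAs were lower or did not pass. Of 14 tested, 6 fell and 0 rose, where 10.2% and 11.3% of all tested genes did. The median log2 fold change was -0.41. Scaled to all reads in a file, 3 were lower and 1 higher, with a median of -0.04 beside 0.39 for all tested genes. On that scale 432 of all 13334 tested genes were lower and 3406 higher. Dkc1, the pseudouridine synthase of H/ACA snoRNPs, fell, with 55.6 and 79.2 CPM against 156 (-1.21 ± 0.22, edgeR adjusted p = 0.00251). Its partner Nhp2 fell, at -0.89 ± 0.19, as did Nhp2l1, a core protein of C/D snoRNPs, at -0.96 ± 0.18, and the assembly factor Znhit3, at -1.36 ± 0.24 (edgeR adjusted p = 0.00668, 0.00284 and 0.00245). Protein-coding genes that host snoRNAs in their introns (Dkc1, Nop56 and Nop58 counted again) had 18 of 38 lower and 5 higher, with a median of -0.34. Scaled to all reads, these hosts had 3 lower, 6 higher and a median of 0.03, against the same 0.39. Many of them encode ribosomal proteins, and over the 81 tested genes with ribosomal protein symbols 53 fell and 1 rose (median -0.51; 10 fell and 2 rose when scaled to all reads). Among these hosts Rps12 (-1.14 ± 0.12) and Rpl12 (-0.79 ± 0.12) fell, and the translation factors Eif4a2 (1.05 ± 0.22) and Eef2 (0.89 ± 0.14) rose (edgeR adjusted p = 0.000196, 0.00136, 0.00562 and 0.00114).

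Factors of nonsense-mediated decay, which degrades several host transcripts, were examined next. Of 17 tested, 1 fell and 0 rose, where 10.2% and 11.3% of all tested genes did. The median was 0.07, and it was -0.17 once the length and GC trend was taken out. Scaled to all reads, 6 rose, where 3406 of all 13334 tested genes did. The gene that fell was Magoh, of the exon junction complex (-0.95 ± 0.19, edgeR adjusted p = 0.00458). The kinase Smg1 (0.71 ± 0.26, edgeR adjusted p = 0.0642) and its regulator Smg9 (0.78 ± 0.29, edgeR adjusted p = 0.0699) did not pass. Messages raised by amino acid stress, some of which are also targets of this decay, had 12 of 13 higher and 0 lower, with a median of 2.12. Among them the transcription factor Atf4 had 386 and 255 CPM in the null libraries against 69.8 (2.20 ± 0.25, edgeR adjusted p = 0.000242), and Chac1 rose by 5.90 ± 0.45 (edgeR adjusted p = 1.78e-05). Atf4 had the same order of libraries as Snhg1, Snhg5 and Snhg12, which Malat1, Neat1 and Gas5 also had. Both null libraries, in either order, lay above the wild type in 43.1% of all tested genes. The share with the full order was not counted, and a link to Atf4 was not tested.

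Protein genes of the 2 nuclear bodies were examined beside their RNAs. Of 16 paraspeckle protein genes 1 rose and 1 fell, where 11.3% and 10.2% of all tested genes did, whereas Neat1 rose. The median of the 16 was -0.02. It was 0.06 by library size alone, 0.07 with the trend removed and 0.35, with 5 higher, when scaled to all reads. Taf15, an RNA-binding protein of the FET family, rose by 0.90 ± 0.19 (edgeR adjusted p = 0.00675), and Sfpq, a core paraspeckle protein, fell, at -0.58 ± 0.19 (edgeR adjusted p = 0.0475). The Sfpq call was lost in 7 of 8 other settings, with values of -0.34 once the length and GC trend was taken out and -0.21 when scaled to all reads (edgeR adjusted p = 0.246 and 0.426, from 0.0393 to 0.426 over all 8). The Sfpq partner Nono was at 0.08 ± 0.15 (edgeR adjusted p = 0.752). Of 18 speckle and SR protein genes 8 fell and 0 rose (median -0.36, opposite in sign to Malat1). Scaled to all reads, 5 were lower and 5 higher, with a median of 0.01 beside 0.39 for all tested genes. On that scale 432 of all 13334 tested genes were lower and 3406 higher. The splicing factor genes Srsf3 and Srsf7 fell, at -1.22 ± 0.19 and -1.07 ± 0.19, as did Srsf1 and Srsf6, at -0.96 ± 0.19 and -1.01 ± 0.21 (edgeR adjusted p = 0.00140, 0.00242, 0.00485 and 0.00520). Son, a scaffold protein of speckles, fell, at -0.54 ± 0.16 (edgeR adjusted p = 0.0273), a call lost with DESeq2, without the filter and when scaled to all reads (-0.17).

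**Figure D5:**
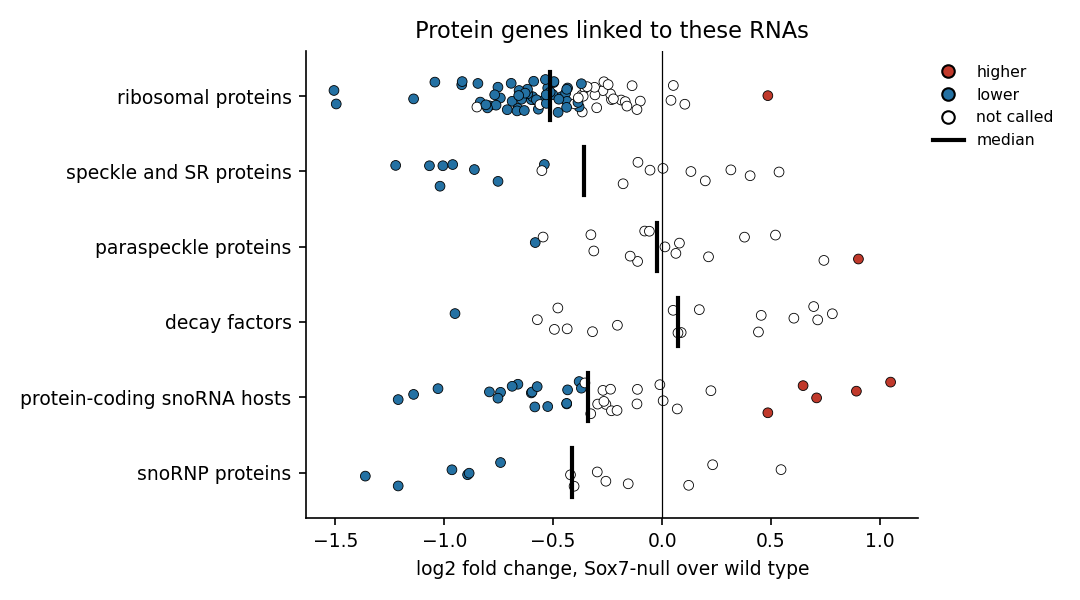
The log2 fold change (edgeR) of each tested gene in 6 groups of protein genes linked to these RNAs, with 1 point for each gene, red for higher and blue for lower at an adjusted p under 0.05, and a black bar at the group median. Ribosomal protein, speckle, snoRNP and protein-coding host genes have medians below 0 (-0.51, -0.36, -0.41 and -0.34), and the paraspeckle and decay groups have medians near 0 (-0.02 and 0.07). When scaled to all reads the speckle and protein-coding host medians are 0.01 and 0.03, and that of all tested genes is 0.39.

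Among 15 other tested long noncoding RNAs (Snhg14 counted again) 1 rose and 0 fell, where 11.3% and 10.2% of all tested genes did. Their median log2 fold change was 0.21. The RNA that rose was H19, an imprinted RNA of growing embryonic tissue, at 3186 and 2614 CPM against 1481 (0.97 ± 0.15, edgeR adjusted p = 0.00125). The imprinted Meg3 did not pass (0.37 ± 0.19, edgeR adjusted p = 0.185). With the length and GC trend removed 2 rose and 2 fell, and scaled to all reads 3 rose.

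Neighbouring genes were taken from GENCODE M21 as the nearest gene on each side with a row in the files. Neat1 lies between Frmd8 and Malat1 on the same strand. Frmd8 did not pass (-0.38 ± 0.22, edgeR adjusted p = 0.251). Of 11 tested neighbours that are no members, 1 was called, where 21.6% of all tested genes were. This was Slc3a2, the shared heavy chain of amino acid transporters, which starts head to head with Snhg1 and rose, with 209 and 157 CPM against 60.0 (1.61 ± 0.22, edgeR adjusted p = 0.000722). The gene on the other side of Snhg1, Wdr74, stood at -0.46 ± 0.20 (edgeR adjusted p = 0.120).

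Genes with the profile most like a member's were sought among 3693 genes with a mean of at least 50 CPM. The measure was the distance between centred log2(CPM + 0.5) values over 3 libraries. Nearest to Malat1 were Sparc, Ctsd and Serpine2, at distances of 0.0020, 0.0084 and 0.011. Nearest to Neat1 were Gpx3, Bnip3 and Itga6 (0.031, 0.038 and 0.047), and nearest to Gas5 were Pxdn, B4galt1 and Cpd (0.018, 0.034 and 0.034). With 3 libraries such a match is a description of these samples. For Neat1, at 0.754 CPM in the wild type, the added 0.5 shrinks its differences between libraries, so its nearest genes depend on that constant. Bnip3 belongs to the list of 10 hypoxia-induced genes, all of which rose (median 1.42, and 9 by DESeq2), where 11.3% of all tested genes did. Egln3 was among them, at 3.52 ± 0.39 (edgeR adjusted p = 0.000217). A link of Neat1 to hypoxia was not tested.

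Markers of cell types in or near the heart tube moved with the genotype as well. All 7 platelet markers rose, with summed levels of 356 and 214 CPM in the mutants and 59.1 in the wild type, and 6 of 7 endoderm and liver bud markers fell, with 2.30 and 2.25 CPM against 47.8 (3 of 7 by DESeq2) and albumin at 0 reads in both null libraries. Of 10 cardiac markers 5 rose, among them Tnnt2 (0.88 ± 0.14, edgeR adjusted p = 0.00145) and Nppa (3.12 ± 0.30, edgeR adjusted p = 8.22e-05). The 1 that fell was Myl2 (-0.57 ± 0.12, edgeR adjusted p = 0.00531), and Myl7 did not pass (-0.26 ± 0.12, edgeR adjusted p = 0.149). Summed levels of the 10 were 21909 and 19291 CPM against 17292. That rise lay largely in Myh7 (4235 and 2490 CPM against 730) and Nppa (2190 and 1198 against 195). Of 8 endothelial markers 2 rose and 1 fell, with 430 and 404 CPM against 368. Of 7 tested primitive erythroid markers 0 rose and 0 fell (0 also by DESeq2 and limma-voom), but their summed level was 4516 CPM in Sox7-null 1 and 14341 in Sox7-null 2, against 13901 in the wild type, so Sox7-null 1 stood apart here too. In bulk RNA fewer cells of a type and less RNA per cell cannot be told apart, and the part of these markers in the levels of the long noncoding RNAs was not tested.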

How the data were processed

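RNA of 2 Sox7-null and 1 wild-type heart tube libraries was measured, grouped by the labels. Per the labels' protocols, a stranded total RNA kit was used, without selection for poly(A), so transcripts with no poly(A) tail can be seen. The deposited values are read counts per gene symbol, made by the authors with CASAVA, TopHat2, HTSeq and DESeq2 1.10.1, per the submitters' processing notes. They list hg19 and GRCh37, which are human, although gene symbols follow mouse usage, and the build of the counts is unsettled. Neither annotation nor strand setting is stated in the sources used here, so overlapping or antisense genes, and near-identical copies, may share reads. Summary lines (no feature 8.10% to 11.7%, ambiguous 1.97% to 2.29% and not unique 10.4% to 22.3% of all reads) stayed out of library sizes and tests.

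Counts were tested with edgeR 4.0.16 in R 4.3.3 (TMM factors 1.03, 1.01 and 0.962; filterByExpr with a minimum count of 10, which kept 13334 genes; Benjamini-Hochberg adjustment). There was 1 residual degree of freedom beside 11.8 prior ones, and the spread of the single control was taken from the mutants. On simulated data of this design (13161 genes tested) the fit called 51 of 100 genes changed by 1 on the log2 scale, 100 of 100 changed by 2, and 3 of 12961 unchanged genes. In the simulation every gene had the same spread (a coefficient of variation of 15% beyond counting error), and only genes of at least 5 CPM were changed. It thus says little about Neat1, or about Snhg1, Snhg5 and Snhg12, whose null libraries lay far apart. The standard error is the log2 fold change divided by the square root of F. Alternatives were other scalings and filters, DESeq2 1.42.0, limma-voom 3.58.1, each null library left out, and a loess trend on transcript length and GC removed. The members and gene lists were chosen with earlier results of these data known, and motifs after the promoters were seen. Named genes were the members, all other listed noncoding hosts, Sox7, the nearest neighbours (not all are reported here), the 3 nearest profiles of Malat1, Neat1 and Gas5, and in each list up to 4 genes by smallest p, with a few more (Nono and Son among them) chosen after their values were seen.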

Additional observations from a re-analysis of the deposited data

How the results depend on the processing

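The number of genes called was 2874, and it was 1639 with DESeq2 and 0 with no filter on low counts, where 4113 genes had an unadjusted p under 0.05 against 4712. Members called were 4 of 8, where 21.6% of all tested genes were called. They were 2 with limma-voom, where 19.1% of genes were called, and 1 with DESeq2, where 14.1% were, which is near the share of all genes. When a mean of 5 CPM was required they were 2, where 2290 of 10287 genes were called, and without the filter they were 0. Scaling to all reads in a file moved the median of all genes from 0.01 to 0.39 and the calls to 3406 higher and 432 lower, against 1508 and 1366. Snhg6 then stood at 0.0095 and Snhg8 at -0.38, which relative to that median are -0.38 and -0.77, and Snhg15 (0.16) and Snhg18 (0.12) changed sign (-0.23 and -0.27 relative to it). The cause was not tested beyond this shift.

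Calls lost were Malat1 without the filter (0.57), at 5 CPM (0.56), with DESeq2 (0.56) and with limma-voom (0.54), Neat1 without the filter (1.98), with the length and GC trend removed (1.79), with DESeq2 (1.99) and with limma-voom (1.92), Snhg5 without the filter (1.65), and Snhg8 without the filter (-0.74), with the trend removed (-0.52), with DESeq2 (-0.75) and scaled to all reads (-0.38). Calls gained were Gas5 (0.66 scaled to all reads), Snhg1 (0.84 by library size alone, 1.14 scaled to all reads, 1.10 with the trend removed) and Snhg12 (1.15 with DESeq2 size factors, 1.24, 1.54 and 1.28 in the same order). Without one null library or the other, values with no test ranged from 0.39 to 0.70 for Malat1, 1.86 to 2.07 for Neat1, 0.071 to 0.47 for Gas5, 0.24 to 1.14 for Snhg1, 1.09 to 2.03 for Snhg5, -0.55 to -0.21 for Snhg6, -0.88 to -0.64 for Snhg8 and 0.52 to 1.60 for Snhg12. No count of calls can be had there. No paired analysis was possible because the groups share no replicate number. Over 51 other named genes, 333 of 397 values with a test kept their direction and side of the threshold. Depth limits Neat1 and the snoRNA rows most.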
